A study of Mus musculus with 10 samples.

Results

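The data described here are the 3 Camk2d knockout (KO) clones made with the guide RNA for exon 9, named KO 3, KO 4 and KO 5, set against 5 Camk2d-intact samples. These 8 samples are part of a series of 10, and the other 2 are KO clones 1 and 2, made with the guide for exon 8. Every sample is mpkCCD, an immortalized mouse collecting duct line with a C57BL/6 background, grown on permeable supports for 7 days in 0.1 nM dDAVP, which activates the vasopressin V2 receptor. The medium of the last 3 days had no serum or growth factors but kept dexamethasone. The intact group holds the untransfected parental line, 2 samples of intact clone 1 and 2 samples of intact clone 2, which makes 3 cell lines. Both intact clones went through transfection with Cas9 and a guide but kept CAMK2D protein and an unmutated gene. Each KO clone grew from a single sorted cell, so a difference that belongs to a clone cannot be told apart from one that belongs to the deletion. Deletions were found at the exon 9 site in each of these clones, and in KO 3 and KO 4 some were a whole number of codons long. The clone numbers come from the labels, and the exon from the study's account of the clones.

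CAMK2D is the delta isoform of calcium/calmodulin-dependent protein kinase II. Calcium-loaded calmodulin binds the kinase and releases its catalytic domain from an inhibitory segment, after which subunits of the holoenzyme phosphorylate each other and stay active. In collecting duct principal cells, vasopressin acts through the V2 receptor, cAMP and protein kinase A, and it also raises intracellular calcium. These cells take up water through aquaporin-2 and sodium through the epithelial sodium channel.

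The targeted exon is shown because all 3 clones carry their mutations in it. In GENCODE M21 on GRCm38, exon 9 of 19 in the principal Camk2d transcript lies at chr3:126795364-126795458 on the plus strand. It is 95 bases long, lies wholly in coding sequence, and spans codons 201 to 232 of 499. The exon is part of 9 of the 13 coding Camk2d transcripts in that annotation. It reads, 5′ to 3′:
Camk2d exon 9: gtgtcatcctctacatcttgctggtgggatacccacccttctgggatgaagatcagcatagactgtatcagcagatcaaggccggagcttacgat

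Camk2d transcript (ENSMUSG00000053819) fell in all 3 clones. Values are TPM, a length-corrected share of all transcripts in which every sample has the same total. The intact samples had 141 TPM in the parental line, 134 and 135 TPM in clone 1, and 129 and 123 TPM in clone 2. KO 3 had 23.2, KO 4 29.8 and KO 5 25.2 TPM. The groups did not overlap, and the clones differed from each other by less than 7 TPM. The exon 9 KO clones averaged 26.1 ± 3.36 TPM (SD, n = 3), which is 19.7% of the intact average of 132 ± 6.97 TPM (SD, n = 5). On log2(TPM + 1) the difference was -2.31 (standard error 0.08, limma adjusted p = 3.36e-06), and a two-sided exact permutation test over the 56 arrangements gave p = 0.0357, the smallest it can give. With 1 mean value per intact cell line the difference was -2.32 (limma adjusted p = 0.00054). Nothing in the sources says that paired samples of an intact clone were separate cultures, so p-values over 5 intact samples may measure technical spread in part. The other CaMK2 genes did not pass the test. Camk2g averaged 4.03 ± 0.359 TPM (SD, n = 3) in the clones against 5.11 ± 1.34 TPM (SD, n = 5), Camk2b averaged 10.6 ± 0.793 TPM (SD, n = 3) against 10.7 ± 2.49 TPM (SD, n = 5), and Camk2a was at most 0.06 TPM in any of them.

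**Figure D1:**
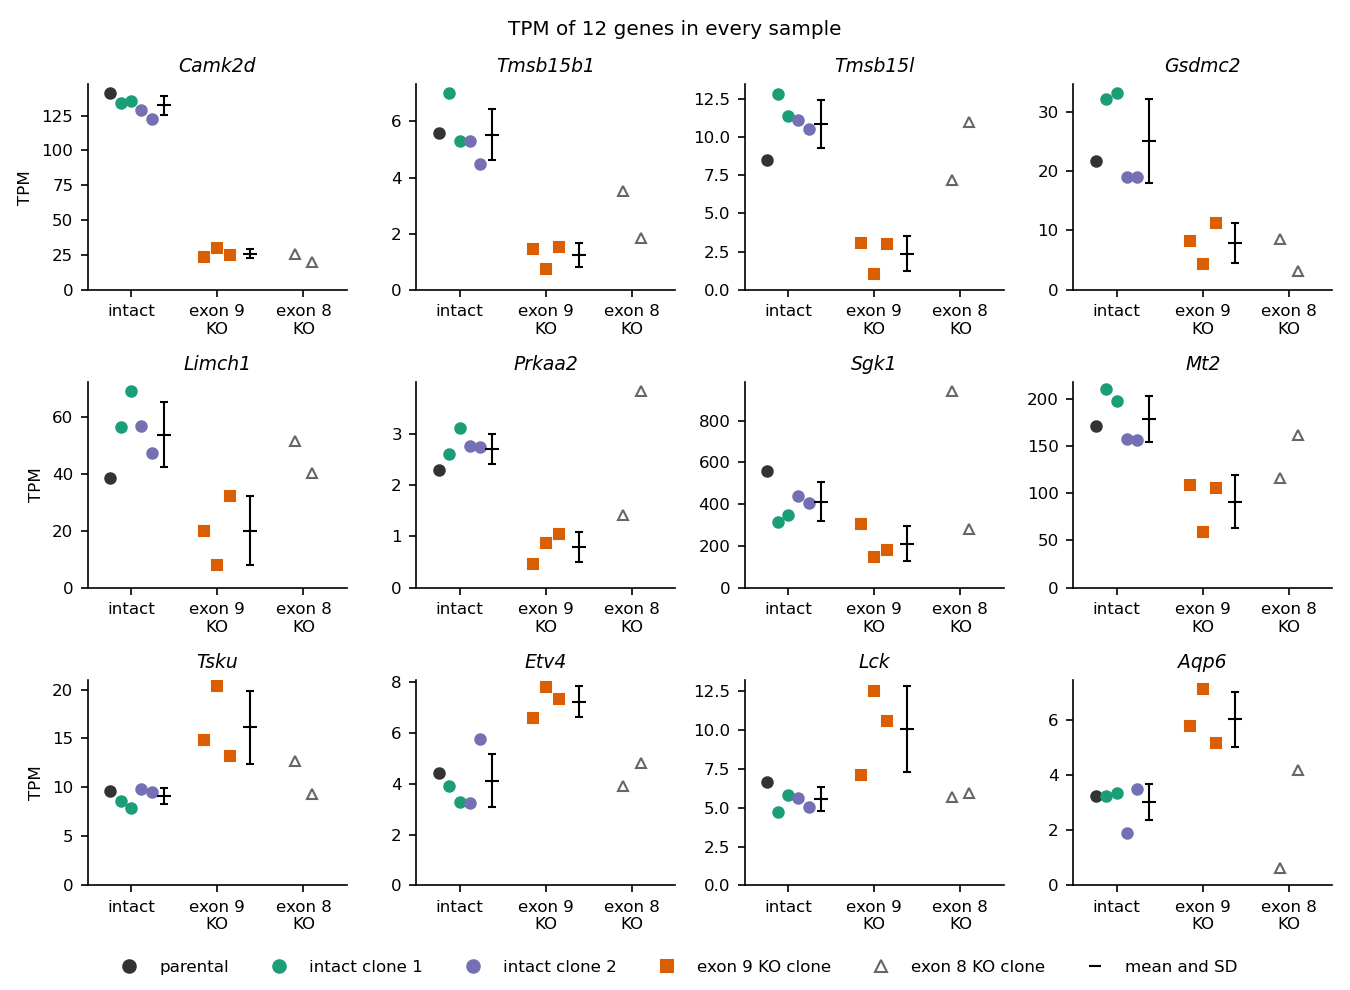
TPM of 12 genes in every sample, with intact samples coloured by cell line, exon 9 KO clones as squares, exon 8 KO clones as open triangles, and the mean and SD beside the intact and exon 9 groups. In each panel all 3 exon 9 KO clones lie on 1 side of the 5 intact samples; for Camk2d they lie between 23.2 and 29.8 TPM against 123 to 141 TPM.

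The samples were alike in their general measures. Between 19344 and 20052 genes per sample were above 0, and the mitochondrial share of TPM was 0.882% to 0.936% in the exon 9 KO clones, inside the 0.803% to 1.0003% of the intact samples. Pairs of exon 9 KO clones correlated at 0.976 to 0.980 (Pearson's r across genes, log2 scale), and intact samples of different lines at 0.974 to 0.978. Of 14 principal cell markers 11 had a mean of at least 1 TPM, and the summed level of the 14 was 12473 to 14204 TPM in intact samples and 11233 to 12620 TPM in the clones. The sum was mostly Krt18 and Aqp2. Krt18 had a mean of 5494 TPM over the 8 samples, and Aqp2 averaged 4317.5 TPM in intact samples and 3174.8 TPM in the clones. Scnn1b, a subunit of the epithelial sodium channel and a defining marker, was below 0.4 TPM in every one of these samples.

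Across the 13018 genes with a mean of at least 1 TPM, limma with Benjamini-Hochberg adjustment called 2 genes (0.0154%), Camk2d and Tmsb15b1, both lower in the clones. Without adjustment, 810 genes were higher (6.22%) and 477 were lower (3.66%) at p under 0.05, so 62.9% of them were higher. That share was 51.1% after rescaling by median ratios. All 3 clones lay above every intact sample for 603 genes (4.63%) and below every intact sample for 296 genes (2.27%). Of these, 387 higher genes (2.97%) and 203 lower genes (1.56%) also had an unadjusted limma p under 0.05 both with 5 intact samples and with 1 value per cell line. These 590 genes are called alike below. Most of the differences were small. The median log2 ratio was 0.23 for the 387 higher and -0.23 for the 203 lower genes, and 5 of the higher and 17 of the lower genes had a log2 ratio beyond 1.

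The clones were not equally far from the intact samples. KO 4 lay above the intact range for 3584 genes and below it for 1953, against 2505 and 1759 for KO 3 and 2211 and 1974 for KO 5. Among the 590 alike genes, KO 4 was the farthest of the 3 clones from the intact mean in 266, KO 3 in 192 and KO 5 in 132. A gap of more than 1 on the log2(TPM + 1) scale below the lowest intact sample was found for 32 genes in KO 4, 23 in KO 3 and 24 in KO 5. For 4 genes it was found in all 3 clones, namely Camk2d, Tmsb15b1, Tmsb15l and the predicted gene Gm20538. Above the highest intact sample, 33, 29 and 21 genes had such a gap in KO 4, KO 3 and KO 5, and 0 genes had it in all 3.

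**Figure D2:**
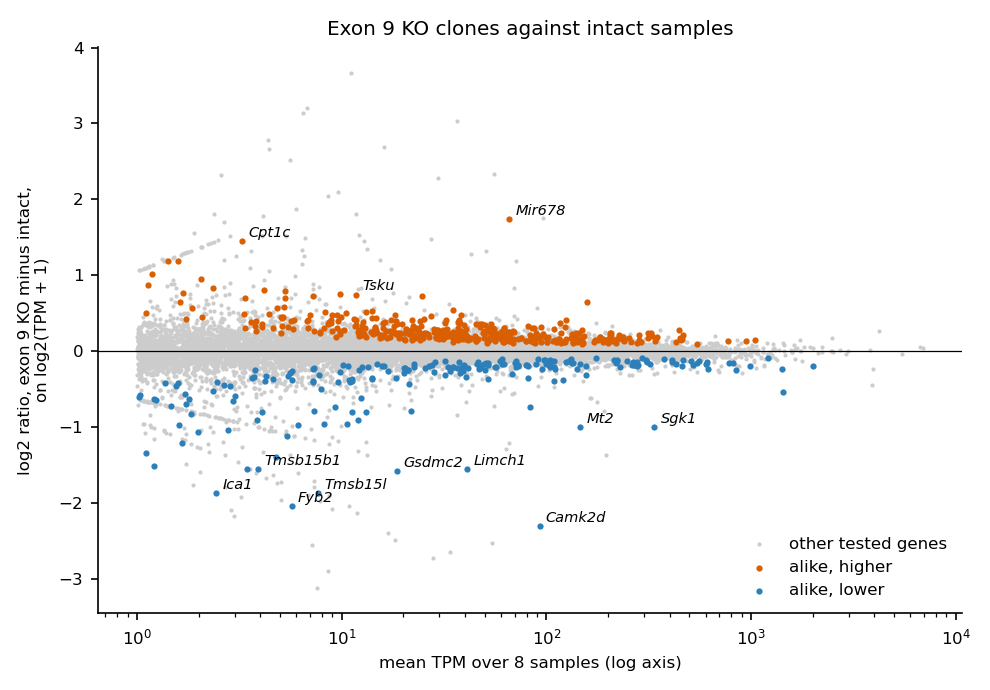
Log2 ratio of exon 9 KO clones to intact samples on log2(TPM + 1) against mean TPM over the 8 samples (log axis), 1 point per gene for 13018 genes. The 590 alike genes are coloured, 387 higher and 203 lower, and most lie within 1 log2 unit of 0, with Camk2d at -2.31.

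The thymosin beta genes Tmsb15b1 and Tmsb15l, which encode small peptides that bind actin monomers, came next to Camk2d in the test. Tmsb15b1 (ENSMUSG00000089768) had 5.57 TPM in the parental line, 7.00 and 5.30 TPM in intact clone 1, 5.29 and 4.49 TPM in intact clone 2, and 1.46, 0.73 and 1.52 TPM in KO 3, KO 4 and KO 5. The clones were at 22.4% of the intact mean, and the log2 difference was -1.56 (standard error 0.17, limma adjusted p = 0.0409). The call did not hold with 1 value per intact line (limma adjusted p = 0.357), and leaving out any 1 sample gave adjusted p-values of 0.0544 to 0.245. Tmsb15l (ENSMUSG00000072955) had 8.53 TPM in the parental line, 12.8 and 11.4 TPM in intact clone 1, and 11.1 and 10.5 TPM in intact clone 2. It had 3.05, 1.05 and 3.03 TPM in the exon 9 KO clones (log2 difference -1.87, standard error 0.23, limma adjusted p = 0.0731). KO 4 was the lowest for both genes. Both genes overlap each other and a further thymosin gene, Tmsb15b2, on chromosome X. Only 40.8% of the 50-base windows of Tmsb15b1 and 36.1% of those of Tmsb15l occur in no other GENCODE M21 gene, so the division of reads among the 3 genes is uncertain. Tmsb15b2 was 0 to 4.96 TPM in intact samples and 1.06 to 2.95 TPM in the clones, so the groups overlapped for it. Summed over the 3 genes, the level was 16.6 TPM in the parental line, 19.9 and 18.8 TPM in intact clone 1, 17.3 and 19.97 TPM in intact clone 2, and 6.39, 4.73 and 5.61 TPM in KO 3, KO 4 and KO 5. The clones were at 30.2% of the intact mean for this sum, and the groups did not overlap.

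In the list of 51 tested actin, thymosin and PDZ-LIM genes, 1 passed the test (Tmsb15b1), 5 lay below every intact sample in all 3 clones (9.80%, against 2.27% of all genes) and 4 above (7.84%, against 4.63%), and the median log2 ratio was -0.01 beside 0.02 for all genes tested. After median ratio scaling 6 lay below (11.8%, against 3.04%) and 2 above (3.92%, against 3.91%). Limch1 encodes an actomyosin-binding protein that activates non-muscle myosin II, and the study counts it among inferred direct CAMK2D substrates. It had 38.6 TPM in the parental line, 56.6 and 69.1 TPM in intact clone 1, 56.9 and 47.3 TPM in intact clone 2, and 19.9, 7.83 and 32.1 TPM in KO 3, KO 4 and KO 5. KO 5 was close to the parental line, while KO 4 was far below every intact sample. The log2 difference was -1.55 (standard error 0.37, limma adjusted p = 0.247). Tmsb4x, the abundant thymosin beta-4 and also an inferred substrate, was 1382 to 1660 TPM in intact samples and 1226 to 1330 TPM in the clones. On the higher side were Phldb1, which anchors microtubules at the cell cortex (10.8 to 13.6 against 15.8 to 20.7 TPM), and Ahnak, a very large scaffold protein and another inferred substrate (54.4 to 60.0 against 60.4 to 73.6 TPM). Among the 35 tested transcripts of inferred direct substrates, 2 lay above and 2 below every intact sample, which is 5.71% each way against 4.63% and 2.27% of all genes, and none passed the test. After median ratio scaling 0 lay above and 2 below.

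Fyb2 and Ica1 were nearly lost in some clones. Fyb2, a relative of a T-cell adaptor protein, had 6.66 TPM in the parental line, 8.35 and 9.23 TPM in intact clone 1 and 7.57 and 8.30 TPM in intact clone 2. It had 0.14 TPM in KO 3 and 0.55 TPM in KO 4 but 4.84 TPM in KO 5. Its log2 difference was -2.04 (standard error 0.44, limma adjusted p = 0.223), and leaving out any 1 sample gave adjusted p-values of 0.000718 to 0.505. The lowest came without KO 5, the clone nearest to the intact samples, so it describes KO 3 and KO 4 only. Ica1, which encodes a secretory-granule-associated BAR-domain protein, had 1.93, 1.68, 1.55, 6.99 and 6.93 TPM in the intact samples and 0.15, 0.31 and 0 TPM in the exon 9 clones. The intact lines themselves differed for Ica1, with clone 2 the highest. Lypd6b, a Ly6-family surface protein gene, had 15.03 TPM in the parental line and 1.85 to 3.60 TPM in the intact clones, against 0.57 to 0.76 TPM in KO 3, KO 4 and KO 5. H60c, a gene for a ligand of the NKG2D receptor, was 1.66 to 6.54 TPM in intact samples and 0.97 to 1.38 TPM in the clones.

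**Figure D3:**
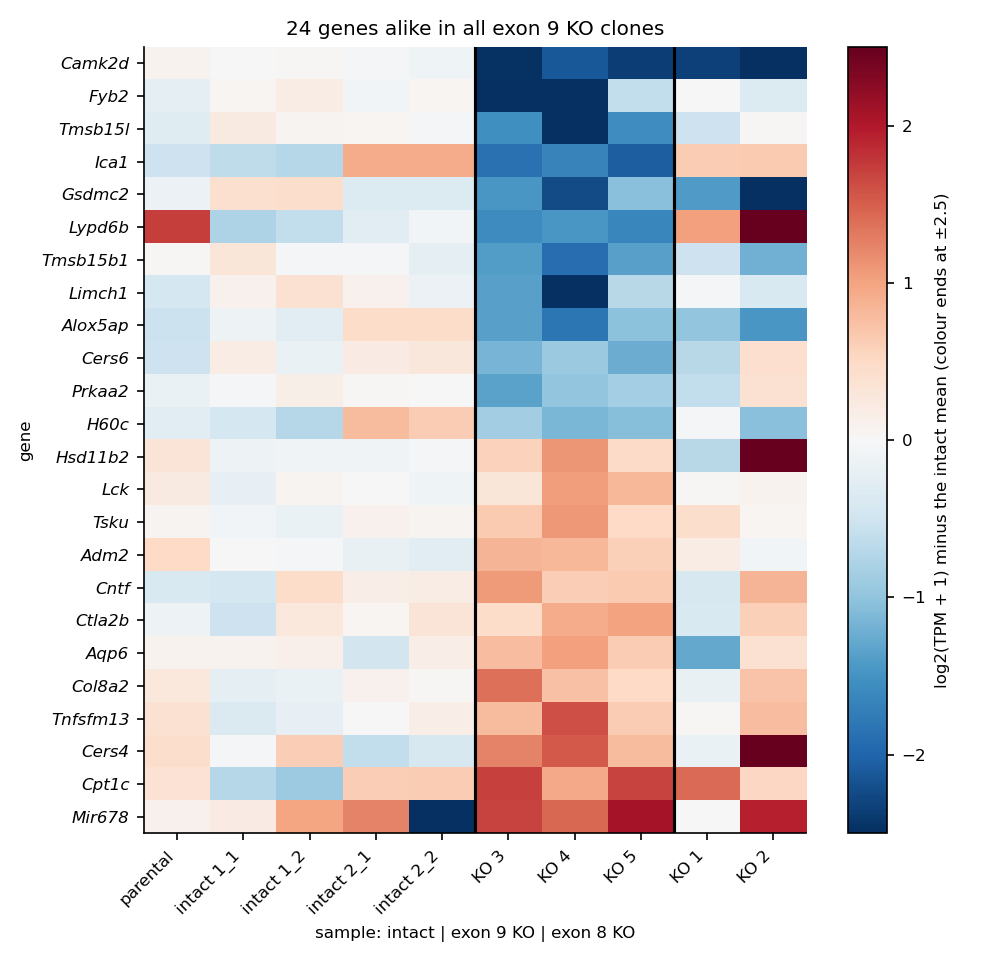
Log2(TPM + 1) minus the intact mean for the 24 named alike genes (rows) in the 5 intact samples, the 3 exon 9 KO clones and the 2 exon 8 KO clones (columns), red for higher and blue for lower. The exon 9 columns keep 1 colour in each row, Lypd6b and Ica1 differ among intact lines, and Fyb2 is paler in KO 5 (4.84 TPM) than in KO 3 (0.14 TPM).

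The named genes with large ratios also included Cers6, Cers4, Cpt1c and Prkaa2, which are grouped here after their values were seen and none of which passed the test. Cers6 and Cers4 encode ceramide synthases with different fatty acyl-CoA preferences. Cers6 had 4.53 TPM in the parental line, 7.98 and 6.06 TPM in intact clone 1, 8.07 and 8.65 TPM in intact clone 2, and 2.54, 3.15 and 2.32 TPM in KO 3, KO 4 and KO 5 (log2 difference -1.11, standard error 0.19, limma adjusted p = 0.178). Cers4 was higher in the clones, at 2.72, 3.58 and 1.73 TPM against 1.12, 0.54, 1.41, 0.03 and 0.19 TPM in the intact samples (log2 difference 1.19, standard error 0.32, limma adjusted p = 0.283). Cpt1c, the brain-type relative of carnitine palmitoyltransferase 1, had 2.15, 0.48, 0.30, 2.74 and 2.81 TPM in intact samples and 7.01, 3.72 and 6.92 TPM in the clones. Prkaa2, the alpha-2 catalytic subunit of the energy sensor AMP-activated protein kinase, had 2.29 to 3.10 TPM in intact samples and 0.46, 0.86 and 1.04 TPM in KO 3, KO 4 and KO 5. For Prkaa2 the intact lines agree within 1 TPM and the clones were at 29.1% of the intact mean (log2 difference -1.06, standard error 0.15, limma adjusted p = 0.146).

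Gsdmc2, Gsdmc3 and Gsdmc4 of the gasdermin C family and the leukotriene gene Alox5ap were lower in every exon 9 clone than in every intact sample. Gsdmc itself was at most 0.13 TPM in intact samples and 0.02, 0 and 0.68 TPM in KO 3, KO 4 and KO 5, too low for the test. Gasdermins are pore-forming proteins that permeabilize membranes after cleavage. Gsdmc2 had 21.8 TPM in the parental line, 32.2 and 33.1 TPM in intact clone 1, 19.0 and 19.1 TPM in intact clone 2, and 8.16, 4.37 and 11.2 TPM in KO 3, KO 4 and KO 5. Its division of reads with its neighbours Gsdmc3 and Gsdmc4 on chromosome 15 is uncertain, since only 48.7% of its 50-base windows are its own. Summed, these paralogs reached 17.6 ± 5.54 TPM (SD, n = 3) in the clones, which is 39.5% of 44.6 ± 9.25 TPM (SD, n = 5). None of the 12 tested genes of the gasdermin, caspase and inflammasome list passed the test, and the other 9 overlapped between the groups. In the leukotriene and prostaglandin list of 21 tested genes, 3 lay above (14.3%, against 4.63% of all genes) and 2 below every intact sample (9.52%, against 2.27%), and none passed the test. Alox5ap, which presents arachidonic acid to 5-lipoxygenase, had 3.98 to 9.04 TPM in intact samples and 1.84, 1.08 and 2.59 TPM in the clones (log2 difference -1.39, standard error 0.27, limma adjusted p = 0.201). Hpgds, a prostaglandin D synthase, was 1.38 to 2.65 TPM against 0.77 to 1.34 TPM. Pla2g4a, the phospholipase that releases arachidonic acid, was 97.9 to 108 TPM against 112 to 115 TPM, and Lta4h, which makes leukotriene B4, was 125 to 136 TPM against 139 to 147 TPM.

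Sgk1 and Hsd11b2, which act in the response of the collecting duct to corticosteroids, differed in opposite directions. Sgk1 is the steroid-induced kinase that limits removal of the sodium channel, and it had 558 TPM in the parental line, 314 and 348 TPM in intact clone 1 and 438 and 406 TPM in intact clone 2. It had 306 TPM in KO 3, 149 TPM in KO 4 and 179 TPM in KO 5, so that KO 3 was only just below the lowest intact sample. The log2 difference was -1.003 (standard error 0.24, limma adjusted p = 0.256). Hsd11b2 inactivates glucocorticoids and so keeps the mineralocorticoid receptor open to aldosterone. It had 24.5 TPM in the parental line, 17.8 to 18.9 TPM in the intact clones and 29.3, 43.1 and 27.4 TPM in KO 3, KO 4 and KO 5 (log2 difference 0.72, standard error 0.15, limma adjusted p = 0.223). Nedd4l, the ubiquitin ligase that removes the sodium channel, was 99.9 to 103 TPM in intact samples and 104 to 112 TPM in the clones, while the channel-activating protease gene Prss8 was 130 to 146 against 147 to 152 TPM. The protease gene Tmprss2 was lower, at 529 to 552 against 432 to 509 TPM. In the list of 27 tested aquaporin and transport genes, Hsd11b2, Nedd4l and Prss8 lay above every intact sample in all clones (11.1%, against 4.63% of all genes) and Sgk1 and Tmprss2 below (7.41%, against 2.27%), and the median log2 ratio was 0.00. Other steroid-response genes of this list, Tsc22d3, Fkbp5, Per1 and Zbtb16, overlapped between the groups. Their log2 differences were -0.07, -0.01, 0.19 and -0.26.

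The water channel gene Aqp2 overlapped between the groups. It had 5502, 3773, 4084, 4338 and 3890 TPM in the intact samples and 3789, 2880 and 2856 TPM in KO 3, KO 4 and KO 5. KO 3 lay within the intact range, and the log2 difference was -0.44 (standard error 0.13, limma adjusted p = 0.326). The vasopressin receptor gene Avpr2 was 222 to 252 TPM in intact samples and 224 to 264 TPM in the clones, although only 27.1% of its windows are its own because it overlaps Arhgap4. Scnn1a was 146 to 193 against 149 to 188 TPM and Scnn1g 13.4 to 24.6 against 13.4 to 16.2 TPM. Of 23 tested genes for vasopressin, cAMP and protein kinase A signalling, Crtc1, a coactivator of CREB, lay above every intact sample (18.7 to 21.2 against 22.4 to 27.1 TPM), which is 4.35% of the list against 4.63% of all genes. The kinase anchor gene Akap12 lay below (274 to 319 against 235 to 267 TPM), which is 4.35% against 2.27%. No gene of this list passed the test.

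The metallothionein genes Mt1 and Mt2, whose products bind zinc and copper and which are induced by metals and glucocorticoids, were lower in every clone than in every intact sample. Mt2 had 172 TPM in the parental line, 210.0 and 197 TPM in intact clone 1, 157 and 157 TPM in intact clone 2, and 109, 59.0 and 105 TPM in KO 3, KO 4 and KO 5. It was at 51.0% of the intact mean, with a log2 difference of -1.01 (standard error 0.19, limma adjusted p = 0.201). Mt1 had 1430 TPM in the parental line, 1846 and 1902 TPM in intact clone 1, and 1440 and 1487 TPM in intact clone 2. In KO 3, KO 4 and KO 5 it had 1095, 951 and 1299 TPM (log2 difference -0.54, standard error 0.13, limma adjusted p = 0.247). KO 4 was the lowest for both. The kit does not mark strand, and 45.8% of the Mt2 windows also match the antisense gene Gm45774. They are 2 of the 19 tested genes of the metallothionein and zinc transport list (10.5%, against 2.27% of all genes), and the other 17 overlapped between the groups. The promoters of both genes are shown because the genes lie side by side on chromosome 8 and differed in the same direction. The metal response element core, searched as TGCACNC or TGCGCNC on either strand, is in capitals in these 300-base RefSeq windows (250 before to 50 after the start, GRCm38.p6). It matches 4 times in Mt2, at chr8:94172368-94172667, and 3 times in Mt1, at chr8:94178839-94179138, both on the plus strand.
Mt2 promoter: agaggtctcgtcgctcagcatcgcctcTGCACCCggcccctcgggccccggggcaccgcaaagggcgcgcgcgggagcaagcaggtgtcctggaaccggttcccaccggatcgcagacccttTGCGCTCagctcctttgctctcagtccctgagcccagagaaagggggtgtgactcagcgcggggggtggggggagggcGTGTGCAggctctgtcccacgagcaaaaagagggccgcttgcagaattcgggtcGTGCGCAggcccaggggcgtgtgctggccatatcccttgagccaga
Mt1 promoter: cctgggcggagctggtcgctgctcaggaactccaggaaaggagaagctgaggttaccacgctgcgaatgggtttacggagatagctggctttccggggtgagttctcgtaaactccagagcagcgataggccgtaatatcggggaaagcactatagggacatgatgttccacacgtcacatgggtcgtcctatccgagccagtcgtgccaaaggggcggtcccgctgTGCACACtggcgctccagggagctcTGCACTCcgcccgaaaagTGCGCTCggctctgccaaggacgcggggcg
Among all 32851 promoter windows of that table, 25.7% hold at least 1 match, 1.97% at least 3 and 0.518% at least 4. A match is a description of these letters and not a measured site.

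Immediate early and MAP kinase feedback genes follow growth factor signalling within a short time. Of 28 tested genes, 13 were higher (46.4%, against 6.22% of all genes) and 2 lower (7.14%, against 3.66%) at an unadjusted limma p under 0.05, 6 lay above and 1 below every intact sample, and none passed the adjusted test. The 6 are 21.4% of the list, against 4.63% of all genes, and they were also 6 after median ratio scaling. The list's median log2 ratio was 0.16. Etv4, an ETS transcription factor induced by fibroblast growth factor signalling, had 4.42 TPM in the parental line, 3.93 and 3.27 TPM in intact clone 1 and 3.24 and 5.76 TPM in intact clone 2. In KO 3, KO 4 and KO 5 it had 6.58, 7.79 and 7.32 TPM (log2 difference 0.70, standard error 0.16, limma adjusted p = 0.236). Phlda1, a feedback gene of receptor tyrosine kinases, had 27.3 to 37.0 TPM in intact samples and 46.8, 46.6 and 39.8 TPM in the clones. Ereg, which encodes the EGF-receptor ligand epiregulin, had 1.26 to 1.60 TPM against 1.73, 3.44 and 2.68 TPM. The smaller differences were Egr2 (12.7 to 16.9 against 17.2 to 18.1 TPM), Ier2 (207 to 242 against 248 to 273 TPM) and Fosl2 (6.6 to 7.27 against 7.35 to 7.6 TPM). Ier3 went the other way, with 40.4 to 49.7 TPM in intact samples and 36.1 to 38.4 TPM in the clones.

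No gene of the interferon or p53 list passed the adjusted limma test. In the type I interferon list 0 of 39 tested genes were higher and 7 lower at an unadjusted limma p under 0.05, and 4 lay below every intact sample. All genes tested had 6.22% higher and 3.66% lower at that p. The 4 genes below every intact sample are 10.3% of the list, against 2.27% of all genes. They were Ddx58, which encodes the RNA sensor RIG-I, the MHC class I gene H2-D1, Irf1 and Ifit3b. Ddx58 had 14.9, 17.2, 14.6, 16.0 and 14.8 TPM in the intact samples and 10.6, 12 and 12.7 TPM in the clones (log2 difference -0.37, standard error 0.08, limma adjusted p = 0.223). H2-D1 was 321 to 360 TPM against 298 to 300.4 TPM, and Irf1 was 73.4 to 80.8 TPM against 59.9 to 71.4 TPM. Ifit3b shares 44.5% of its windows with Ifit3, which overlapped between the groups. The median of the interferon list was -0.11. In the p53 list 5 of 32 tested genes were higher (15.6%, against 6.22% of all genes) and 0 lower at an unadjusted limma p under 0.05, and 3 lay above every intact sample (9.38%, against 4.63%). The list's median log2 ratio was 0.10 beside 0.02 for all genes, and by clone it was 0.06 in KO 3, 0.18 in KO 4 and 0.02 in KO 5. Phlda3 had 101 to 127 TPM in intact samples and 129 to 162 TPM in the clones, Zmat3 2.94 to 3.78 against 3.88 to 4.99 TPM, and the exonuclease gene Aen 33.0 to 36.5 against 37.5 to 39.8 TPM. For the exon 8 KO clones, the log2 ratios of Phlda3, Zmat3 and Aen to intact were -0.23, -0.52 and -0.15, and the list's median was -0.12. Cdkn1a, the cyclin-dependent kinase inhibitor that p53 induces, overlapped between the groups, with means of 371 and 409 TPM.

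Of 79 tested nuclear genes of the respiratory chain, none passed the adjusted limma test. At an unadjusted p under 0.05, 11 were lower (13.9%, against 3.66% of all genes) and 0 higher (against 6.22%). Ndufa3, Ndufa7, Ndufb8 and Ndufv3, all of complex I, lay below every intact sample (5.06% of the list, against 2.27% of all genes). Ndufa7 was 817 to 934 TPM in intact samples and 738 to 790.2 TPM in the clones, and Ndufb8 was 1202 to 1304 against 1151 to 1193 TPM. The list's median was -0.04, and the 7 tested genes of the mitochondrial genome itself had a median of 0.05. Cytosolic ribosomal protein genes showed 5 of 83 below every intact sample (6.02%, against 2.27% of all genes) and 0 above (against 4.63%), with a median of -0.01 that became 0.01 after quantile normalization. The clones disagreed for this list, with medians of 0.01 in KO 3, -0.09 in KO 4 and 0.07 in KO 5. In the proliferation list, 0 of 44 tested genes lay outside the intact range in all 3 clones, and 0 had an unadjusted limma p under 0.05 in either direction.

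**Figure D4:**
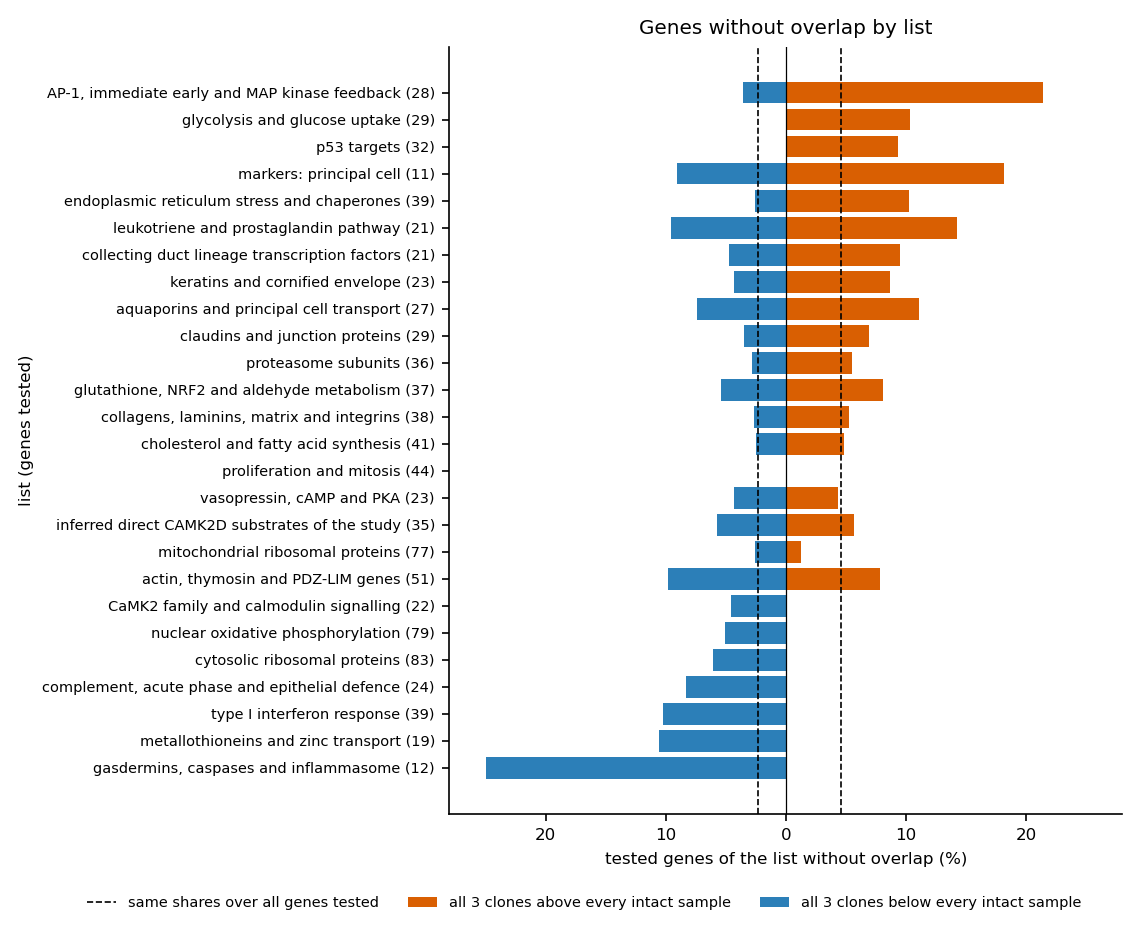
Share of the tested genes of each list whose TPM lay above (right) or below (left) every intact sample in all 3 exon 9 KO clones; the number tested is in parentheses and the dashed lines give the shares over all genes, 4.63% and 2.27%. The longest bar to the right is the AP-1 and MAP kinase feedback list at 21.4%, and the longest to the left is the gasdermin list at 25.0% (3 of 12 genes, which are paralogs).

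Tsku, Adm2, Lck and Aqp6 were among the 12 higher genes named for their ratios, and they have different functions. Tsku, a secreted leucine-rich proteoglycan that modulates growth factor signalling, had 9.59, 8.60, 7.93, 9.86 and 9.50 TPM in the intact samples and 14.9, 20.3 and 13.2 TPM in KO 3, KO 4 and KO 5. Its log2 difference was 0.74 (standard error 0.13, limma adjusted p = 0.180). Adm2, a peptide hormone of the calcitonin family, had 5.99 to 11.1 TPM against 14.3, 14.2 and 11.8 TPM, with the parental line close to KO 5. Lck, a Src-family kinase known from T cells, had 4.70 to 6.68 TPM against 7.09, 12.5 and 10.6 TPM. Of 11 leukocyte markers 3 had a mean of at least 1 TPM, with Cd14 the highest. Adgre1, C1qa, C1qb and Itgam were listed at 0 in all 8 samples, and the summed marker level was 123 to 177 TPM in intact samples and 117 to 137 TPM in the clones. Aqp6, a vesicular aquaporin of intercalated cells, had 3.22, 3.24, 3.33, 1.88 and 3.49 TPM in the intact samples and 5.77, 7.11 and 5.15 TPM in the clones (log2 difference 0.81, standard error 0.17, limma adjusted p = 0.223). Of 14 intercalated cell markers 6 reached 1 TPM. Atp6v1g3, Insrr and Kit were listed at 0 in all 8 samples, and the summed level, mostly Car2, was 238 to 422 TPM in intact samples and 295 to 494 TPM in the clones. Whether a change in the share of such cells has a part in the Aqp6 values was not tested, and fewer cells of a type cannot be told apart from less RNA per cell.

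The remaining higher genes were low or share sequence. Col8a2, a short-chain collagen, was 0.35 to 0.90 TPM in intact samples and 1.23 to 3.11 TPM in the clones. Cntf, the ciliary neurotrophic factor gene, was 0.54 to 1.87 TPM against 2.19 to 3.32 TPM, but 78.0% of its windows match Zfp91. Tnfsfm13, the read-through of Tnfsf12 and Tnfsf13, was 0.19 to 0.99 TPM against 1.37 to 3.67 TPM, with 29.0% of its windows its own. Ctla2b, a cathepsin inhibitor gene with 31.0% of its windows its own, was 2.39 to 5.07 TPM against 5.65 to 8.68 TPM. Mir678 was 4.38 to 74.0 TPM against 84.2 to 133 TPM. It is a hairpin gene inside Prmt2 with no window of its own, so its value cannot be read as a microRNA level.

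To see where the exon 9 KO clones differ from the exon 8 KO clones KO 1 and KO 2, both were fitted with the intact samples, which makes their ratios share the same controls. Between the guides limma called 52 genes (0.399%), 40 of them higher and 12 lower in the exon 9 KO clones. With 1 value per intact line it called 0, with the lowest adjusted p at 0.0674 and 1629 genes at an unadjusted p under 0.05. The count also depended on single clones and was 2 without KO 3, 21 without KO 4 and 13 without KO 5. Fits without KO 1 or KO 2 leave 1 exon 8 KO clone, so no count is given for them. Only 2 exon 8 KO clones are available, and they correlated less with each other (r = 0.966 across genes) than the exon 9 KO clones did.

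For Camk2d the exon 8 KO clones had 25.5 and 19.8 TPM, a log2 ratio to intact of -2.51 beside -2.31 for exon 9. The summed Gsdmc2, Gsdmc3 and Gsdmc4 level had a ratio of -1.93 for exon 8 and -1.32 for exon 9, with Gsdmc2 at -1.99 and -1.58, Gsdmc3 at -1.48 and -0.91, and Gsdmc4 at -1.63 and -0.90. Alox5ap had ratios of -1.22 and -1.39. The thymosin genes were split. Tmsb15b1 had 3.51 and 1.83 TPM in KO 1 and KO 2, below every intact sample, and a ratio of -0.86 beside -1.56 for exon 9 (limma adjusted p = 0.251 for the difference). Tmsb15l had 7.22 and 11.01 TPM there and a ratio of -0.25 beside -1.87 for exon 9 (limma adjusted p = 0.0566 for the difference). The sum with Tmsb15b2 was 10.7 and 12.8 TPM in KO 1 and KO 2, below every intact sample, with a ratio of -0.61 beside -1.57. Fyb2 had 7.88 and 6.11 TPM there, Limch1 51.5 and 40.3 TPM, and Prkaa2 1.42 and 3.83 TPM, all above every exon 9 KO clone. The guide differences for Fyb2, Limch1 and Prkaa2 had limma adjusted p-values of 0.170, 0.227 and 0.173. Ica1 had 5.50 and 5.57 TPM in the exon 8 clones (limma adjusted p = 0.0817 for the difference), and Lypd6b had 8.90 and 30.2 TPM (0.0731). Sgk1 had 943 TPM in KO 1 and 283 TPM in KO 2, and Hsd11b2 had 11.5 and 115 TPM, so that the exon 8 KO clones lay on either side of the exon 9 KO clones for Hsd11b2. The exon 8 KO clones also disagreed for Aqp6, with 0.64 TPM in KO 1 and 4.18 TPM in KO 2, and for Cers4, with 0.40 and 9.78 TPM. KO 1 lay below every intact sample for Aqp6 and within them for Cers4, while KO 2 lay above every intact sample for both.

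**Figure D5:**
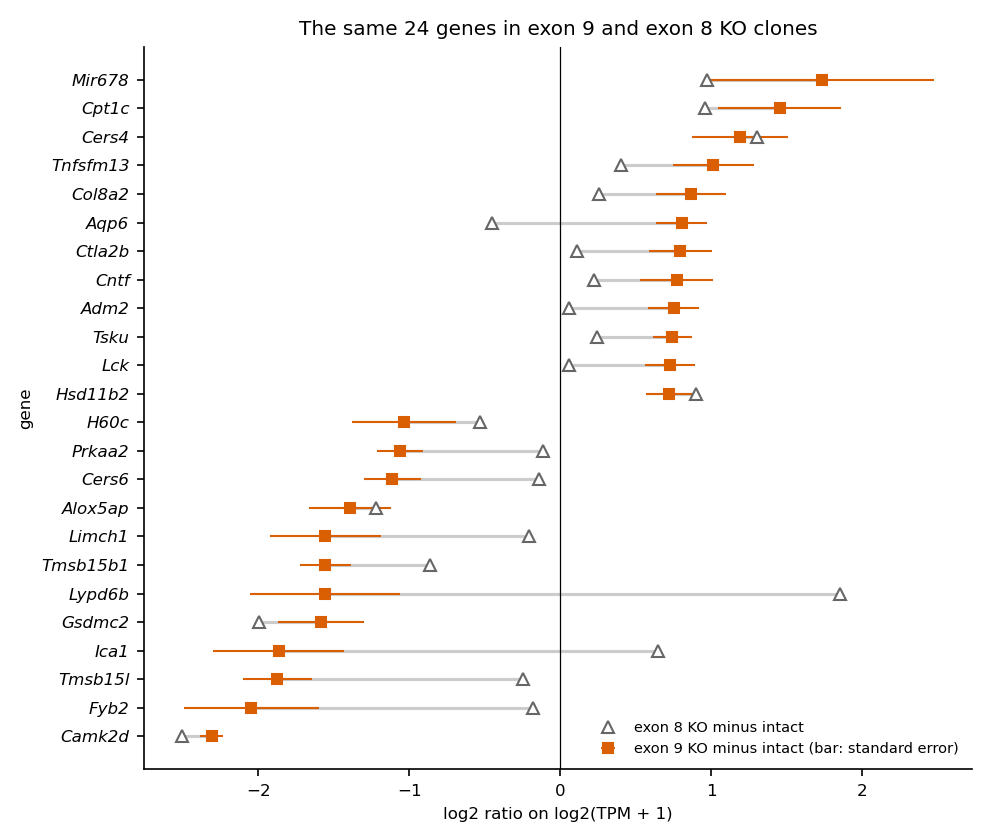
Log2 ratio to intact on log2(TPM + 1) for the 24 named alike genes, with squares and standard error bars for the exon 9 KO clones and open triangles for the exon 8 KO clones; both ratios use the same 5 intact samples. Camk2d, Gsdmc2 and Alox5ap are among the genes with both symbols below 0, while Lypd6b, Ica1 and Aqp6 have them on opposite sides.

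Of the 590 alike genes, 14 also passed the test between the guides, 3 higher and 11 lower in exon 9 KO clones than in intact samples. They were selected on the same exon 9 values, so this count is a description. Mycl, a MYC family transcription factor gene, had 3.15 to 4.38 TPM in intact samples, 1.67 to 2.26 TPM in the exon 9 KO clones and 4.87 and 5.19 TPM in the exon 8 KO clones. Rundc3b was 0.98 to 2.21, 0.34 to 0.82, and 3.13 and 4.44 TPM in the same order. Hpgds was 4.04 and 6.24 TPM in the exon 8 KO clones, above every intact sample, and 0.77 to 1.34 TPM in the exon 9 KO clones, below them. The actin-severing gelsolin gene Gsn had 273 to 294 TPM in intact samples, 234 to 258 TPM in exon 9 KO clones and 377 and 477 TPM in exon 8 KO clones. Sap25, which shares 65.9% of its windows with Gm20605, had 13.1 to 17.0, 11.1 to 13.0, and 25.7 and 22.0 TPM. In contrast, the ribosomal protein genes Rps29, Rps21, Rpl37a and Rps28, with Ndufa3 and Cops9, were below intact in all 5 KO clones and lowest in the exon 8 KO clones. Over all 83 tested cytosolic ribosomal protein genes, the median log2 ratio to intact was -0.30 for exon 8 and -0.01 for exon 9. Rps29 was 629 to 682 TPM in intact samples, 542 to 580 TPM in exon 9 KO clones and 381 and 345 TPM in exon 8 KO clones. Tob1, an antiproliferative transcription regulator, Ell, an elongation factor gene, and Ier3ip1 lay above intact in the exon 9 KO clones. Tob1 was 58.7 to 64.6 TPM in intact samples, 66.0 to 74.6 TPM in exon 9 KO clones and 49.1 TPM in both exon 8 KO clones. Aqp2 also differed between the guides, with 1281 and 1618 TPM in KO 1 and KO 2 (log2 difference 1.13, standard error 0.18, limma adjusted p = 0.0398), but not with 1 value per intact line (0.114).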

How the data were processed

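RNA-seq was performed by the authors on 10 samples with full-length cDNA amplification. Per the paper's methods, reads were aligned with STAR to the mouse genome (Ensembl annotation) and quantified with RSEM. The deposited table gives TPM, normalized by the authors, for 55414 genes and 1 column per sample. TPM keep no depth, so the depth is unknown, no counting error can be given, and a value of 0 is listed as such. Fold changes on log2(TPM + 1) understate those of low genes.

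Genes with a mean of at least 1 TPM over the 8 samples were compared as log2(TPM + 1) with limma 3.58.1 in R 4.3.3 (eBayes with trend), Benjamini-Hochberg adjustment and a threshold of 0.05. Exon 9 and exon 8 KO clones were compared in a 3-group fit of all 10 samples. Exact permutation tests (scipy 1.17.1) were run on the named genes, and only the value for Camk2d is given. For a gene without overlap this permutation test always gives its smallest p, 0.0357. The procedure was first tested on simulated data. Named genes are Camk2d, genes past the threshold, the 12 alike genes with the largest ratio in each direction, list members without overlap and fixed principal cell, CaMK2 and gasdermin C genes. Predicted genes and pseudogenes (23 higher, 20 lower) were not named by this rule. Genes that differ between the guides were added after their values were seen. The comparison and the 33 gene lists were chosen with earlier results of these data known. Windows and exon 9 were read from GENCODE M21 (GRCm38), while the authors used a later annotation. Alternatives were pseudocounts of 0.1 and 0.5, other filters, scalings and variance models, 1 value per intact line, line as a random effect (duplicateCorrelation, correlation 0.488), and leaving out each sample.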

Additional observations from a re-analysis of the deposited data

Results flagged for a closer look

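Among 119 named genes, 7 had an intact sample far from the other 4 by Dixon's criterion on log2(TPM + 1), where chance flags about 1 in 20 groups. The parental line was high for Hsd11b2 (24.5 TPM), Lypd6b (15 TPM) and Pfkm (23.6 TPM). A sample of intact clone 2 was low for Aqp6 (1.88 TPM) and high for Pdia3 (618 TPM), the other was high for Rps21 (166 TPM), and a sample of intact clone 1 was high for Ndufa7 (934 TPM).

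The exon 9 effect differed from the exon 8 effect by the limma test (adjusted over 13018 genes) for 15 named genes, which lost this call with 1 value per intact line. Alike genes that passed this test were added to the named genes after their values were seen, so this count is a description. Of all 13018 genes, 52 passed (0.399%). On the log2 scale, exon 9 minus exon 8 was -1.57 for Hpgds, -1.54 for Rundc3b, -1.07 for Mycl, -0.953 for Sap25 and -0.77 for Gsn. It was 1.13 for Aqp2, 0.62 for Rps29, 0.58 for Rps28, 0.571 for Rpl37a, 0.522 for Rps21, 0.507 for Tob1, 0.485 for Ier3ip1, 0.418 for Ndufa3, 0.353 for Cops9 and 0.329 for Ell.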

How the results depend on the processing

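The difference in Camk2d kept its direction and its call under 14 alternatives and with each of 8 samples left out, with log2 differences from -2.40 to -2.23. The count of called genes, 2, was 1 with 1 value per intact line, line as a random effect, all 10 samples in 1 fit, genes of at least 5 TPM, no trend or without intact clone 1. It was 3 with a pseudocount of 0.1, all genes above 0 or median ratio scaling, and 1 to 4 with 1 sample left out, with 4 without KO 3, KO 4 or KO 5. Genes without overlap, 603 higher and 296 lower, were 1034 and 565 with 1 value per intact line, a rule that compares fewer values, and 715 to 1278 and 376 to 691 with 1 sample left out, with 1013 and 485 without the parental line. After median ratio scaling they were 509 and 396. The 52 genes called between the guides were 0 with 1 value per intact line and 2 to 1822 with 1 sample left out, with 34, 23, 13, 5 and 16 without each intact sample and 21 and 13 without KO 4 and KO 5. Of the other named genes, only Avpr2, Scnn1a and Camk2b changed sign. Avpr2 became -0.0174 without intact clone 2, and was -0.0500 to 0.0687 with 1 sample left out. Scnn1a became -0.00778 after median ratio scaling and -0.11 without intact clone 1, and was -0.0712 to 0.0932 with 1 sample left out. Camk2b became -0.0474 with 1 value per line, -0.0159 with line as a random effect and -0.17 without intact clone 1, and was -0.0816 to 0.122 with 1 sample left out. The causes were not tested. No paired analysis was possible because the groups share no replicate numbers in the labels. Depth is unknown, and genes near 1 TPM have the least certain ratios.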

Other observations

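Other lists held genes that stood outside the intact range in all 3 exon 9 KO clones, none of them past the adjusted limma test. Of 29 tested genes for glycolysis and glucose uptake, 3 were higher and 0 lower both without overlap and at an unadjusted p under 0.05, which is 10.3% of the list against 4.63% and 6.22% of all genes. Hk1, the hexokinase that starts glycolysis, was 286 to 334 TPM in intact samples and 337 to 374 TPM in the clones. Pfkm, a phosphofructokinase, was 20.8 to 23.6 TPM against 25.0 to 28.2 TPM, and Pdk2, a kinase that inhibits pyruvate dehydrogenase, was 78.5 to 96.3 TPM against 101 to 120.0 TPM. Of 37 tested glutathione and NRF2 genes, 3 lay above (8.11%, against 4.63% of all genes) and 2 below every intact sample (5.41%, against 2.27%). G6pdx, Tkt and Taldo1 are among these and act in the pentose phosphate pathway, which had no list of its own. G6pdx was 66.9 to 72.4 TPM against 76.3 to 80.0 TPM, Tkt 298 to 349 TPM against 355 to 361 TPM, and Taldo1 265 to 289 TPM against 242 to 254 TPM.

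Of 21 tested collecting duct lineage transcription factors, 2 lay above (9.52%, against 4.63% of all genes) and 1 below every intact sample (4.76%, against 2.27%). Klf5 was 92.8 to 105 TPM in intact samples and 120.5 to 130.3 TPM in the clones (log2 difference 0.30, standard error 0.05, limma adjusted p = 0.180), and Gata3 was 240.4 to 258 TPM against 259 to 280.2 TPM. Grhl1 was lower, at 20.8 to 23.96 TPM against 18.5 to 20.5 TPM. In the matrix and integrin list of 38 tested genes, 2 lay above (5.26%, against 4.63% of all genes) and 1 below every intact sample (2.63%, against 2.27%). Those above were the subunits of the laminin receptor of hemidesmosomes, Itgb4 at 44.4 to 47.8 TPM against 52.2 to 57.7 TPM and Itga6 at 65.1 to 66.1 TPM against 69.7 to 81.0 TPM. The gene below was Sparc, a matrix protein gene, at 1.81 to 2.57 TPM against 0.39 to 1.03 TPM. Bag3, a co-chaperone of Hsp70, was 5.30 to 6.53 TPM against 7.89 to 8.40 TPM. In that list of 39 chaperone genes 4 lay above (10.3%, against 4.63% of all genes) and 1 below every intact sample (2.56%, against 2.27%).

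In the remaining function lists, the counts outside the intact range stand beside 4.63% of all genes above and 2.27% below. Complement and epithelial defence genes showed 0 of 24 above and 2 below, and keratin and cornified envelope genes 2 of 23 above and 1 below. Claudin and junction genes showed 2 of 29 above and 1 below, cholesterol and fatty acid synthesis genes 2 of 41 above and 1 below, proteasome genes 2 of 36 above and 1 below, glutathione and NRF2 genes 3 of 37 above and 2 below, and mitochondrial ribosomal protein genes 1 of 77 above and 2 below. After median ratio scaling, where 3.91% of all genes lay above and 3.04% below, the count above fell to 0 for proteasome genes, to 1 for the cholesterol, junction and lineage transcription factor lists, to 2 for glutathione genes and to 3 for chaperones. The count below became 2 for chaperones, 3 for mitochondrial ribosomal protein genes and 6 for the respiratory chain. Among the markers of other cells, the fibroblast list had 2 of 15 genes at 1 TPM or more, with Fn1 the highest, and summed to 36.3 to 65.7 TPM in intact samples and 56.01 to 82.96 TPM in the clones. The proximal tubule list had 1 of 14 such genes, Lrp2, and the thick ascending limb and endothelium lists had 0 of 11 and 0 of 8.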
